A study of Mus musculus with 12 samples.

Results

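The kidney sets the body's phosphate by how much of it the proximal tubule takes back from the filtrate, and 10 genes of that control were followed in mouse renal cortex: the phosphate transporters Slc34a1, Slc34a3, Slc20a1 and Slc20a2, klotho (Kl), the fibroblast growth factor receptor Fgfr1, the vitamin D hydroxylases Cyp27b1 and Cyp24a1, the vitamin D receptor Vdr and the parathyroid hormone receptor Pth1r. They were listed by name for their roles, with earlier results of these data known, out of 46095 gene symbols in the count table. All 10 passed the filter on low counts, which left 17530 genes for testing. The RNA sequencing libraries came in 3 groups of 4: normal control (NC), diabetic nephropathy, which is kidney disease caused by diabetes (DN), and the same disease treated with sodium butyrate (DN+NaB). Gut bacteria release butyrate, a short-chain fatty acid that also blocks histone deacetylases. All 12 libraries were labelled C57BL/6, aged 12 weeks, kept under specific-pathogen-free conditions. The labels state neither how diabetes was produced nor the dose, route or length of butyrate treatment, and none ties a library to an animal, so a p-value here speaks of the spread between libraries.

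Phosphate is taken up across the apical membrane of the proximal tubule by the sodium-coupled transporters of the Slc34 family. Parathyroid hormone and the bone hormone FGF23, which needs klotho as a co-receptor beside an FGF receptor, both lower that uptake. Calcitriol, the active form of vitamin D, is made in the proximal tubule by Cyp27b1 and broken down by Cyp24a1. It acts through Vdr, and Cyp24a1 is among the best known genes that this receptor switches on. FGF23 signalling is known to lower Cyp27b1 and to raise Cyp24a1.

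Library totals ran from 58394975 to 70674015 counts (median 63588713). Since the extraction protocol names another cortex than the tissue label, renal cortex, kidney and brain genes were read in every library. The 10 genes of the convoluted proximal tubule were all detected and summed to 9748 to 14600 CPM (counts scaled to library size), while of the neuronal genes Snap25 was at 0 counts throughout, Slc17a7 at 0 to 2, Syt1 at 1 to 15 and Gad1 at 1 to 21. The glial gene Gfap had 2 to 41 counts. Mbp, Ttr and Folr1, which are also on the brain list, were clearly detected, with 942 to 1501, 93 to 4627 and 19331 to 40317 counts; Folr1, the folate receptor, is a gene of the proximal tubule too.

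In all, Cyp24a1 and Kl were higher in DN+NaB than in NC, at 5.57 and 4.46 times the level. Disease and treatment both differ in that comparison, and edgeR called neither gene in DN+NaB against DN (adjusted p = 0.350 and 0.168). No other of the 10 genes passed edgeR's test in any comparison. The rise of Cyp24a1 was seen in all 4 treated libraries. That of Kl rested on DN+NaB replicates 2 and 4. The proximal transporters Slc34a1 and Slc34a3, and Vdr, also lay higher in every DN+NaB library than in every NC library, without passing the test. Groups were separate for 27.9% of all tested genes in that comparison. In bulk tissue, a change in the number of cells of a type and in RNA per cell cannot be told apart.

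Promoter windows were read from RefSeq (GRCm38.p6), which covered 7 of the 10 genes and gave no entry for Cyp24a1, Slc20a2 or Fgfr1. Each window holds 300 bases, 250 before the start site and 50 after it. The window of Kl is shown because Kl had the widest spread between treated libraries. That of Cyp27b1 is shown because it had the widest spread between DN libraries; it was chosen after its values were seen. Capitals mark TGACCC, which is GGGTCA read on the other strand, 1 of 4 hexamers of the kind bound by the vitamin D receptor that were searched on both strands.
Kl, chr5:150952357-150952656, plus strand: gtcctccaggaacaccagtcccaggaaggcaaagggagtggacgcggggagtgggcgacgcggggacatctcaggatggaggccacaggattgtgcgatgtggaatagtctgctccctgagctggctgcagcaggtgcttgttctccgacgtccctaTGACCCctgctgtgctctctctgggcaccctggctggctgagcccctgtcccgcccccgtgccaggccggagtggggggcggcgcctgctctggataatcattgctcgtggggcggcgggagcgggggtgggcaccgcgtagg
Cyp27b1, chr10:127047996-127048295, plus strand: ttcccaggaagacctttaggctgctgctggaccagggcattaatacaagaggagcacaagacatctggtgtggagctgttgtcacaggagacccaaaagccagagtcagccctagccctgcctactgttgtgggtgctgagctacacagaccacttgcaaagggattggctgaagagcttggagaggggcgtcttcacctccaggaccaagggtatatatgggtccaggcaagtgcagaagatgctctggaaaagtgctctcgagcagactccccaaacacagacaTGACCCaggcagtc
The Kl window was 67.3% G and C and that of Cyp27b1 54.3%. The hexamer lies at position -93 in Kl and at position 37 in Cyp27b1, counted from the start site as 1. It occurs in 13.7% of all 32851 windows. The other hexamers were in neither window; AGGTCA occurs in 16.3% of all windows, GGTTCA in 10.4% of them and AGTTCA in 14%. The E-box CANNTG, found in 72.3% of windows, occurred at position -119 in Kl and at positions -189, -99 and -21 in Cyp27b1. The cAMP response element TGACGTCA (1.79% of windows) and TGACG, which it contains (20.8%), were in neither. These matches describe letters in a window and not binding.

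Each gene was tested with edgeR's quasi-likelihood test in 1 fit of all 12 libraries, and called where the p adjusted over the 17530 genes (Benjamini-Hochberg) was under 0.05. In DN against NC, edgeR called 3.82% of all genes higher and 4.42% lower, and none of the 10. An unadjusted edgeR p under 0.05 was found for 3 of them (Cyp24a1, Cyp27b1 and Slc20a1) and for at least 3648 of the 17530 genes. DESeq2 called 2 of the 10 there, Cyp27b1 and Slc20a1, but also more genes in all (1031 higher, against 669 in edgeR), and limma voom called 0 of the 10. In DN+NaB against DN, edgeR called 0.0114% of genes higher and 0.0114% lower, which is 2 genes each, and none of the 10. Unadjusted p in edgeR was under 0.05 for 3 of them (Cyp24a1, Kl and Slc34a3), and for at least 1719 of the 17530 genes. DESeq2 called 1 of the 10 (Kl), with 257 genes in all against 4 in edgeR, and voom 0. Between DN+NaB and NC, edgeR called 6.62% of genes higher and 8.94% lower. Of the 10 genes it called 2, both higher, DESeq2 called 3 (Cyp24a1, Kl and Slc34a3; 1531 genes higher in all, against 1161 in edgeR) and voom 1 (Cyp24a1).

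The comparisons share libraries: DN serves the first and the second, NC the first and the third, DN+NaB the second and the third. The median log2 fold change of the 10 genes was 0.15 in DN against NC, 0.16 in DN+NaB against DN and 0.40 in DN+NaB against NC, beside medians of 0.01, -0.02 and -0.01 over all tested genes. Groups did not overlap for 1 of the 10 genes in DN against NC (Slc20a1), where 13.3% of all genes had separate groups. They did not overlap for 2 in DN+NaB against DN (Kl and Cyp24a1; 4.56% of all genes) and for 5 in DN+NaB against NC (Slc34a1, Slc34a3, Kl, Cyp24a1 and Vdr; 27.9% of all genes).

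**Figure D1:**
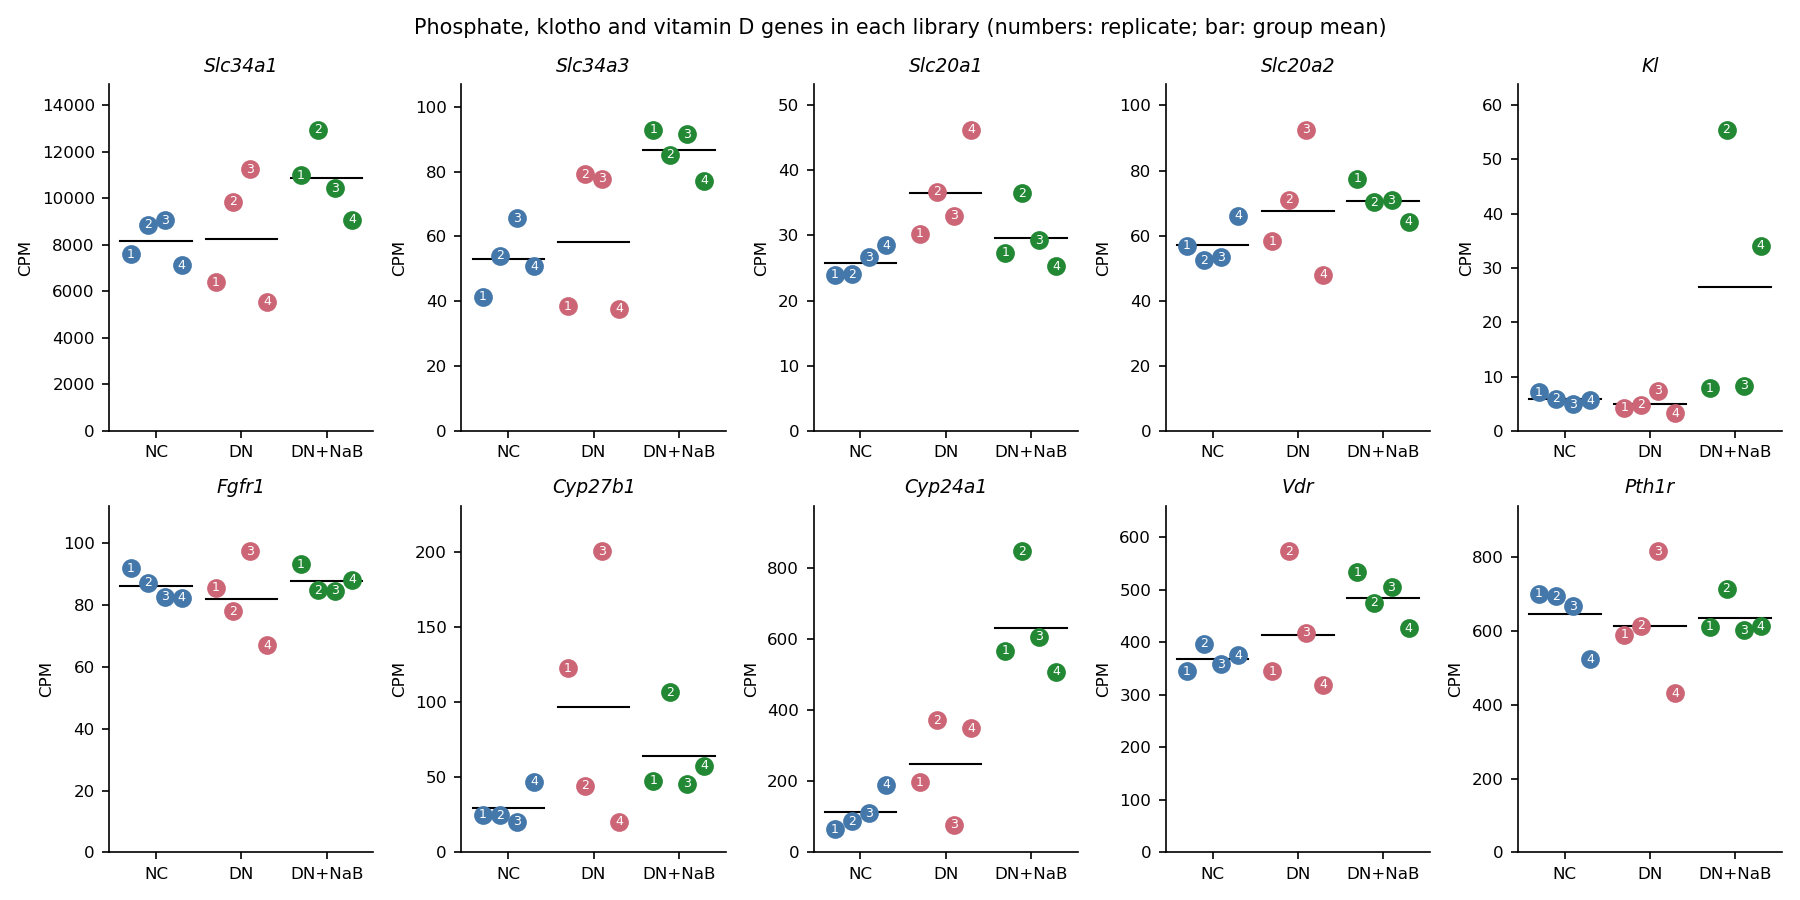
Level of each gene in CPM (counts scaled to library size, linear axes from 0) in the 12 libraries, with the replicate number inside each point and a bar at the mean of each group of 4. Cyp24a1 is above 500 CPM in all DN+NaB libraries and below 400 in all others, Kl is high in DN+NaB 2 and 4, and the DN libraries spread widely for Slc34a1, Slc34a3 and Cyp27b1.

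**Figure D2:**
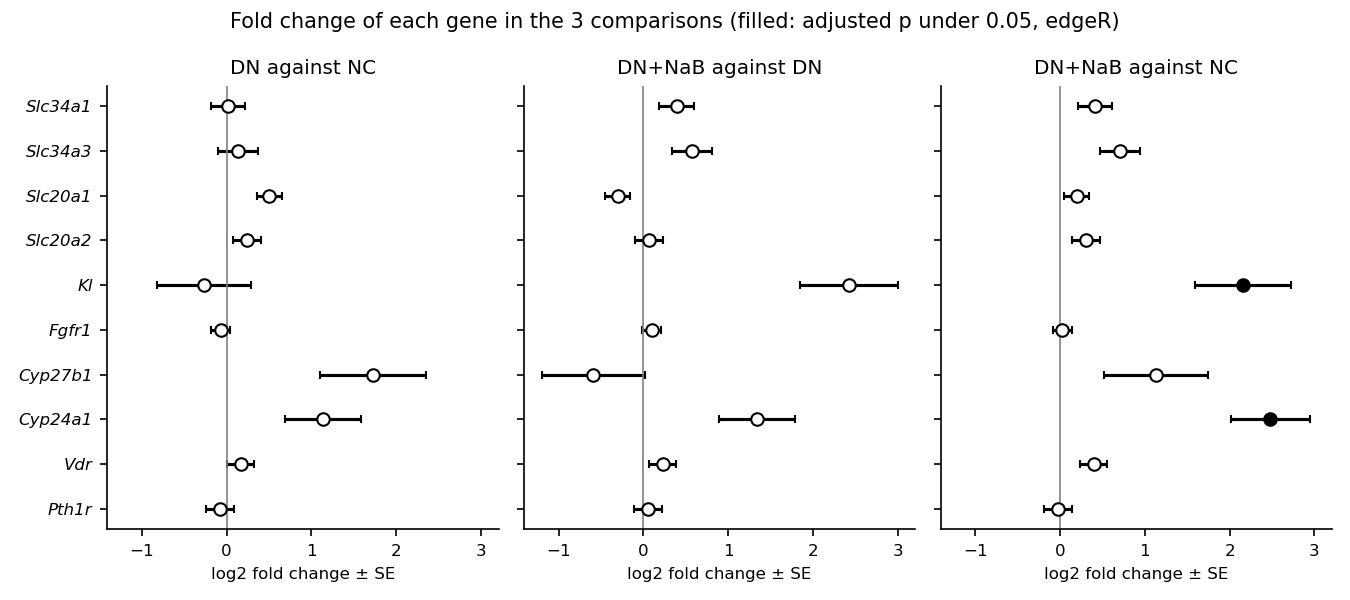
Log2 fold change of each gene with its standard error (SE) in the 3 comparisons, from edgeR; filled points have an adjusted p under 0.05. Kl and Cyp24a1 in DN+NaB against NC are the 2 filled points, and Kl and Cyp27b1 carry the widest standard errors.

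Slc34a1 encodes NaPi-IIa, the main phosphate transporter of the proximal tubule in rodents. Its level was 7592, 8861, 9060 and 7108 CPM in NC replicates 1 to 4, 6378, 9841, 11241 and 5541 in DN, and 10980, 12943, 10418 and 9084 in DN+NaB. The DN libraries fell on both sides of NC, with replicates 1 and 4 below all NC libraries and 2 and 3 above them, while every DN+NaB library lay above every NC library. The fold change in DN against NC was 0.02 ± 0.21 on the log2 scale (edgeR adjusted p = 0.980), and its sign turned under 10 of 18 alternative settings. DN+NaB differed from DN by 0.40 ± 0.21 (edgeR adjusted p = 0.565) and from NC by 0.41 ± 0.21 (edgeR adjusted p = 0.196).

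The sister transporter Slc34a3, NaPi-IIc, had the same low and high libraries within DN. It stood at 41.4, 54.1, 65.6 and 50.7 CPM in NC, at 38.5, 79.2, 77.8 and 37.6 in DN, and at 92.9, 85.2, 91.6 and 77.1 in DN+NaB. DN replicates 1 and 4 were again the low ones, and the DN+NaB libraries were all above NC but overlapped DN. The log2 difference was 0.14 ± 0.24 in DN against NC (edgeR adjusted p = 0.797), 0.57 ± 0.24 in DN+NaB against DN (0.454) and 0.71 ± 0.24 in DN+NaB against NC (0.0583). That last value missed the threshold in edgeR and passed it in DESeq2 (adjusted p = 0.0202).

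Per kilobase of the longest coding transcript in GENCODE vM21, Slc34a1 exceeded Slc34a3 by 75.7 to 101 times in NC, by 68.1 to 90.8 times in DN and by 62.3 to 83.2 times in DN+NaB. The ranges of the 3 groups overlap. The genes of the convoluted proximal tubule, where both transporters act, summed to 10250, 10500, 9779 and 10070 CPM in NC, 11850, 14320, 14600 and 9748 in DN, and 13900, 14130, 13050 and 11080 in DN+NaB. DN replicates 1 and 4 were thus the lowest DN libraries by this sum too. Pck1 and Slc4a4 weighed most in it, with DN means of 4730.5 and 2531.2 CPM. Of the 10 genes on that list, 2 rose in DN against NC and 5 in DN+NaB against NC, with none lower. Of all tested genes, 3.82% and 6.62% were higher in these comparisons, and 4.42% and 8.94% lower. The 8 genes of the straight proximal tubule mostly went the other way, with 6 lower and 1 higher in each of these comparisons. Their summed level was at least 2863 CPM in every NC library, at most 1651 with DN alone and at most 1414 with butyrate. The part of either gene list in the transporter values was not tested.

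Slc20a1 and Slc20a2 encode PiT-1 and PiT-2, sodium-coupled phosphate transporters found in most cells. Slc20a1 was 24.0, 24.1, 26.7 and 28.5 CPM in NC, 30.2, 36.7, 33.0 and 46.2 in DN, and 27.4, 36.5, 29.3 and 25.3 in DN+NaB. Every DN library was above every NC library, and DN replicate 4 was the highest. The log2 difference of DN from NC, 0.50 ± 0.15, lay next to the threshold (edgeR adjusted p = 0.0509). It passed in 2 of 18 alternatives, DESeq2 (0.0225) and edgeR without DN replicate 1 (0.0341), and it was 0.35 without DN replicate 4 (edgeR adjusted p = 0.111). DN+NaB stood at -0.30 ± 0.15 from DN (edgeR adjusted p = 0.526) and 0.20 ± 0.15 from NC (0.399). DN replicate 4 also had the highest sum of the 6 tubular injury genes, 3467 CPM against 888.3 to 1637 in the other libraries; what part this had in its Slc20a1 level was not tested.

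Slc20a2 stood at 56.9, 52.4, 53.4 and 66.1 CPM in NC, 58.3, 71.1, 92.6 and 48.0 in DN, and 77.5, 70.3, 70.9 and 64.2 in DN+NaB. Neither diseased group separated from NC. The log2 differences were 0.24 ± 0.17 for DN against NC, 0.07 ± 0.16 for DN+NaB against DN and 0.31 ± 0.17 for DN+NaB against NC (edgeR adjusted p = 0.446, 0.907 and 0.233). Per kilobase, Slc20a2 was 0.966 times Slc20a1 in DN replicate 4 and 1.79 to 2.63 times in the other 11 libraries. The library with the most Slc20a1 had the least Slc20a2.

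Klotho is made mainly by the distal convoluted tubule, with less in the proximal tubule, and lets FGF receptors bind FGF23. The kidney is known as its main site, but the Kl counts were low in the deposited table: 464, 385, 328 and 410 in NC, 273, 273, 488 and 199 in DN, and 461, 3351, 506 and 2374 in DN+NaB. As CPM this was 7.10, 5.96, 4.94 and 5.69, then 4.28, 4.80, 7.39 and 3.21, then 7.84, 55.5, 8.33 and 34.1. DN+NaB replicates 2 and 4 stood far above the other 10 libraries. Replicates 1 and 3 of that group were just above the highest value elsewhere, the 7.39 of DN replicate 3.

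The test of Kl gave a log2 difference of -0.27 ± 0.55 for DN against NC (edgeR adjusted p = 0.838), 2.42 ± 0.57 for DN+NaB against DN (0.168) and 2.16 ± 0.57 for DN+NaB against NC (0.0246), the last of which was called. DESeq2 also called DN+NaB against DN (2.43, adjusted p = 0.00649). The call against NC did not hold when any NC library was left out (edgeR adjusted p = 0.0514 without replicate 1, 0.0536 without 2, 0.0641 without 3 and 0.0583 without 4), nor without DN+NaB replicate 2 (0.0624) or replicate 4 (0.0596). Without both, a choice made after the values were seen, Kl stood 0.45 log2 above NC (edgeR adjusted p = 0.449) and 0.72 above DN (0.904).

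Values that could move with Kl were read in the same libraries. The 8 genes of the distal convoluted and connecting tubule had a summed level between 1791 and 2567 CPM in NC and between 1984 and 2917 in DN. In DN+NaB it was 2779, 3022, 2836 and 3023 CPM, so the sum was highest in replicates 2 and 4, the libraries with most Kl. The sums of these 4 libraries lay close together beside their Kl levels. DN replicate 2, at 2917 CPM, was above DN+NaB replicates 1 and 3 but had only 4.80 CPM of Kl. Of these 8 genes, 3 rose and 1 fell in DN+NaB against NC, beside 6.62% higher and 8.94% lower of all tested genes. The choroid plexus of the brain is another site of klotho. The sum of the 8 brain genes lay between 490.3 and 578.7 CPM in the NC libraries, between 355 and 684.8 with DN alone and between 485.9 and 619.3 with butyrate, and Folr1 made up most of that sum (group means of 449, 465 and 501 CPM). Among them Ttr, a choroid plexus gene, had 168 and 93 counts in DN+NaB replicates 1 and 3 and 2834 and 2379 in replicates 2 and 4, and 4070 to 4627 in NC. The parathyroid gene Gcm2 was at 0 counts in all libraries. The part of distal tubule or choroid plexus genes in the Kl values was not tested. Per kilobase Kl stood at 1.16 CPM in NC, at 0.961 in DN and at 5.17 in DN+NaB, the lowest of the 10 genes in each group. How reads were counted is not given, and whether reads of Kl were lost in counting, which would bear on its level and folds, was not tested.

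Fgfr1, the receptor with which klotho is best known to pair, was 91.9, 87.3, 82.7 and 82.5 CPM in NC, 85.7, 78.0, 97.5 and 67.0 in DN, and 93.3, 84.9, 84.7 and 88.3 in DN+NaB. All 3 groups overlapped. It differed by -0.07 ± 0.11 in DN against NC, 0.10 ± 0.11 in DN+NaB against DN and 0.03 ± 0.11 in DN+NaB against NC (log2; edgeR adjusted p = 0.780, 0.796 and 0.894). The sign of the last value turned under 4 of 19 alternatives, such as scaling by library size alone (-0.0841). Its standard error was the smallest among the 10 genes.

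Cyp24a1, the mitochondrial hydroxylase that inactivates calcitriol, gave the firmest result. Its level was 65.7, 87.6, 110.0 and 190.6 CPM in NC (113 ± 54.5, mean ± SD, n = 4), 197.5, 372.2, 78.5 and 349.7 in DN (249 ± 138), and 567.7, 847.0, 605.9 and 508.0 in DN+NaB (632 ± 149). DN+NaB lay above all other libraries, and NC and DN overlapped through DN replicate 3. The rise from NC to DN+NaB was 2.48 ± 0.47 on the log2 scale, or 5.57-fold (edgeR adjusted p = 0.00434), and it passed the threshold under all 19 alternatives, with log2 values from 2.28 to 2.83 and adjusted p from 1.44e-06 to 0.0395. DN stood 1.14 ± 0.45 above NC (edgeR adjusted p = 0.160) and DN+NaB 1.34 ± 0.45 above DN (0.350), so neither step on its own passed. The step from NC to DN passed in 1 of 18 alternatives, without DN replicate 3 (1.43, edgeR adjusted p = 0.0294), and was 0.88 without DN replicate 2 (0.344).

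Cyp27b1, the hydroxylase that makes calcitriol, varied mostly within DN. It was 25.1, 24.6, 20.5 and 46.9 CPM in NC, 122.6, 44.4, 200.4 and 20.4 in DN, and 47.8, 106.6, 45.6 and 57.6 in DN+NaB. DN replicate 3 had the most and DN replicate 4 the least of all 12 libraries. The log2 difference was 1.73 ± 0.62 for DN against NC (edgeR adjusted p = 0.130), -0.59 ± 0.61 for DN+NaB against DN (0.776) and 1.14 ± 0.61 for DN+NaB against NC (0.247). Against NC, DN passed in 2 of 18 alternatives, DESeq2 (adjusted p = 0.0395) and edgeR without DN replicate 4 (2.03, adjusted p = 0.0309). Without DN replicate 3 it stood 1.09 above NC (edgeR adjusted p = 0.316), and DN+NaB then differed from DN by 0.0446.

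Macrophages can also make Cyp27b1. The summed level of 8 macrophage genes was 936.8 to 1298 CPM in NC, then 4215, 1157, 3676 and 2027 in DN, then 342.2 to 1017 in DN+NaB, so the sum was highest in DN replicates 1 and 3, the libraries with most Cyp27b1. That sum was mostly Cd74, an antigen presentation gene that tubule cells can express too, at 4084 and 3526 CPM in these 2 libraries. The macrophage gene Adgre1 was lower there, at 4.98 and 3.10 CPM against 8.31 to 10.8 in NC. Of the 8 genes, none rose and 1 fell in DN against NC by edgeR, beside 3.82% higher and 4.42% lower of all tested genes. The part of Cd74 or of macrophages in the Cyp27b1 values was not tested.

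Within DN, the 2 libraries with more Cyp27b1 (replicates 1 and 3) had less Cyp24a1 than the 2 with less of it (replicates 2 and 4). Per kilobase, Cyp24a1 was 1.75, 2.38, 3.59 and 2.72 times Cyp27b1 in NC, 1.08, 5.60, 0.262 and 11.5 times in DN, and 7.94, 5.31, 8.89 and 5.89 times in DN+NaB. Every DN+NaB library had a higher ratio than every NC library, and the DN libraries reached beyond both groups at either end. DN replicate 3 was the only library in which the RNA of Cyp27b1 exceeded that of Cyp24a1 by this measure. The ratio was formed after the values were seen and carries no test.

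**Figure D3:**
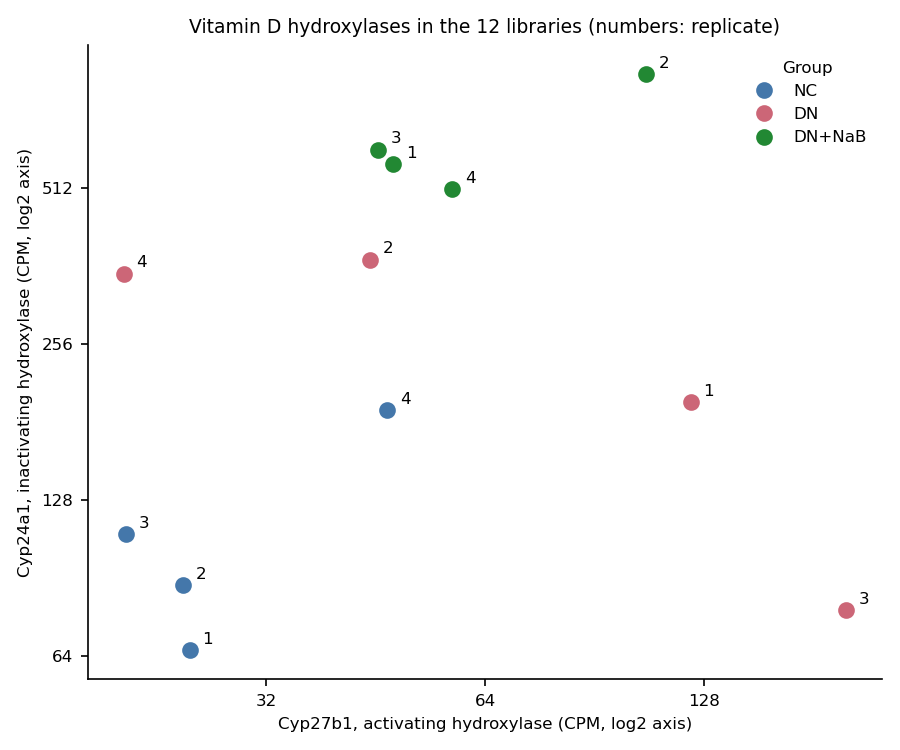
Cyp24a1 against Cyp27b1 in CPM in each of the 12 libraries, both on log2 axes, coloured by group with the replicate number beside each point. The 4 DN+NaB libraries sit at the top between 508.0 and 847.0 CPM of Cyp24a1, while the DN libraries spread from top left (replicate 4) to bottom right (replicate 3).

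Vdr, the nuclear receptor for calcitriol, was 344.6, 396.9, 357.9 and 374.9 CPM in NC, 345.1, 573.4, 417.7 and 319.5 in DN, and 532.9, 475.5, 505.2 and 426.9 in DN+NaB. All DN+NaB libraries were above NC, and DN replicate 2 was the highest of all. The log2 difference was 0.17 ± 0.16 in DN against NC, 0.23 ± 0.16 in DN+NaB against DN and 0.40 ± 0.16 in DN+NaB against NC (edgeR adjusted p = 0.598, 0.665 and 0.106).

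Pth1r, through which parathyroid hormone withdraws phosphate transporters from the apical membrane, was 700.8, 695.0, 667.3 and 523.2 CPM in NC, 589.8, 615.0, 816.8 and 431.1 in DN, and 611.4, 715.0, 601.8 and 612.6 in DN+NaB. The groups overlapped throughout. Its log2 differences were -0.08 ± 0.17, 0.05 ± 0.17 and -0.03 ± 0.17 in the same order of comparisons (edgeR adjusted p = 0.846, 0.934 and 0.937). By level per kilobase in NC, the genes ranked Slc34a1 (2047 CPM per kilobase), Pth1r (280.3), Vdr (84.3), Cyp24a1 (31.9), Slc34a3 (24.3), Fgfr1 (17.1), Slc20a2 (16.0), Cyp27b1 (12.3), Slc20a1 (7.78) and Kl (1.16). Of neighbours in that order, Cyp24a1 and Slc34a3, Fgfr1 and Slc20a2, and Slc20a2 and Cyp27b1 had overlapping ranges over the 4 NC libraries. In DN+NaB the mean of Cyp24a1, 178 CPM per kilobase, passed that of Vdr, 111.

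Other genes of the same systems were read from 4 lists. Of 21 genes of phosphate handling, 16 were tested. In DN against NC, edgeR called 2 higher and 1 lower, beside 3.82% and 4.42% of all tested genes. Alpl, the alkaline phosphatase that frees phosphate from phosphate esters, went from 515 ± 47.8 to 1009 ± 186 CPM (0.97 ± 0.14 log2, edgeR adjusted p = 4.80e-04). Slc17a3, an organic anion transporter of the family first described as sodium-phosphate transporters, went from 504 ± 53.2 to 263 ± 58.9 CPM (-0.94 ± 0.17, edgeR adjusted p = 0.00305). The intestinal-type transporter Slc34a2 was 7.27, 9.52, 10.1 and 8.25 CPM in NC and 11.8, 20.3, 18.9 and 81.9 in DN (1.92 ± 0.50, edgeR adjusted p = 0.0381), with the top value in replicate 4, the library richest in injury genes.

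Of the phosphate list, 2 genes were higher and 2 lower in DN+NaB against NC by edgeR, beside 6.62% and 8.94% of all tested genes. Alpl differed by 1.08 ± 0.14 and Slc17a3 by -1.28 ± 0.17 (log2). Ezr, which encodes the membrane linker ezrin, rose by 0.45 ± 0.13 (edgeR adjusted p = 0.0354), and Slc9a3r2, an apical scaffold gene, fell by 0.60 on the log2 scale (edgeR adjusted p = 0.0255). The count was 2 without NC replicate 2 or 3 or without DN+NaB replicate 3 or 4. Between DN+NaB and DN, edgeR, DESeq2 and voom each called 0 of the 16. None of the 16 had an unadjusted p under 0.05, beside at least 1719 of all 17530 genes in edgeR. The smallest p on the list belonged to Slc17a3 (-0.34 ± 0.17 log2) and Enpp1 (-0.20 ± 0.10). Fgf23 itself was outside the test for low counts.

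The klotho and FGF list held 25 genes, of which 24 were tested and Klb, the klotho relative, was too low. In DN against NC, edgeR called 1 higher and 1 lower, beside 3.82% and 4.42% of all tested genes. Fgfrl1, a receptor-like gene without a kinase, was higher (0.66 ± 0.19 log2, edgeR adjusted p = 0.0419) and the growth factor Fgf1 was lower (-0.58 ± 0.14, 0.0209). This count of 2 was 0 without NC replicate 1 or 3 or DN replicate 2 or 3, 1 without NC replicate 2, 6 without DN replicate 4, and 0 when only the 2 groups were fitted. Set against NC, DN+NaB had 3 of the 24 higher and 1 lower, beside 6.62% and 8.94% of all tested genes. Higher were Il17rd (0.64 ± 0.12, edgeR adjusted p = 0.00268) and Etv5 (0.71 ± 0.22, 0.0462), both known to be induced by FGF receptor signalling. Fgfrl1 was also higher (0.61 ± 0.19, 0.0403) and Fgf1 lower (-0.63 ± 0.14, 0.00857). Other listed genes known to be induced in that way were not called: Egr1 (0.73 ± 0.64), Dusp6 (0.54 ± 0.18), Etv4 (0.42 ± 0.26), Spry1 (0.37 ± 0.17), Spry4 (0.03 ± 0.20), Spred1 (-0.02 ± 0.33), Dusp5 (-0.03 ± 0.27) and Spry2 (-0.29 ± 0.13). That count of 4 was 2 when NC replicate 1, 2 or 3, or DN+NaB replicate 1, 2 or 4, was left out, and 0 without both DN+NaB replicates 2 and 4, but 8 when only the 2 groups were fitted. Between DN+NaB and DN, edgeR, DESeq2 and voom called 0 of the 24. In edgeR, 1 had an unadjusted p under 0.05, Il17rd (0.27 ± 0.12), followed by Dusp6 (0.33 ± 0.18). At least 1719 of all 17530 genes had an unadjusted p under 0.05 there.

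Vitamin D uptake, transport and target genes numbered 23, of which 21 were tested. In DN against NC, 3 rose and none fell, beside 3.82% higher and 4.42% lower of all tested genes. The 3 were Gc, the vitamin D binding protein, from 61.2 ± 6.13 to 207 ± 46.7 CPM (1.76 ± 0.16 log2, edgeR adjusted p = 1.31e-05), Cyp27a1, a mitochondrial sterol hydroxylase that can act on vitamin D (0.61 ± 0.13, 0.00890), and Rxrg. Rxrg, a partner receptor of Vdr, had 6 to 20 counts per NC library, 59 to 107 per DN library and 77 to 207 per DN+NaB library (2.81 ± 0.40 in DN against NC, edgeR adjusted p = 5.39e-04). The count of 3 was 5 without DN replicate 4. Rxrb, another partner receptor, was too low to test, with 0 to 18 counts in any library. Whether reads of Rxrb were lost in counting was not tested.

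By edgeR, 6 of these 21 genes were higher and 3 lower in DN+NaB against NC, beside 6.62% and 8.94% of all tested genes. The 5 with the smallest p were Gc (1.62 ± 0.16 log2), Rxrg (3.78 ± 0.41), Cyp27a1 (0.71 ± 0.13), Slc8a1, the sodium-calcium exchanger (0.57 ± 0.13, edgeR adjusted p = 0.00851), and Dab2, an adaptor of the megalin receptor (0.43 ± 0.12, 0.0312). The count of 9 was 4 without NC replicate 1, 2 or 3, without DN+NaB replicate 3 or 4, and without both DN+NaB replicates 2 and 4. Slc8a1, Calb1 and Trpv5 also stand on the list of distal convoluted and connecting tubule genes given above. Between DN+NaB and DN, edgeR, DESeq2 and voom called 0 of the 21. In edgeR, 5 of them had an unadjusted p under 0.05, as had at least 1719 of all 17530 genes. The smallest of the 5 were those of the calcium channel Trpv6 (-0.81 ± 0.23, edgeR adjusted p = 0.251) and the calcium-binding protein S100g (0.70 ± 0.20, 0.251). For both, picked here by their small p, the groups did not overlap, as for 4.56% of all tested genes.

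Of 24 genes of parathyroid hormone signalling, 21 were tested. In DN against NC, 1 was higher and 3 were lower by edgeR, beside 3.82% and 4.42% of all tested genes. Casr, the calcium-sensing receptor, fell from 281 ± 40.5 to 177 ± 13.3 CPM (-0.67 ± 0.13 log2, adjusted p = 0.00458), the arrestin Arrb1 differed by -0.44 ± 0.10 (edgeR adjusted p = 0.0151), the phosphodiesterase Pde4a by -0.64 ± 0.19 (0.0481) and the phospholipase Plcb3 by 0.43 ± 0.09 (0.0111). In the kidney Casr is mostly a gene of the thick ascending limb. The 7 marker genes of that limb had a summed level of 7625 to 13150 CPM in NC, against 5229 to 7181 with DN alone and 5320 to 6870 with butyrate. Of these, 2 of 7 were lower in DN against NC, beside 4.42% of all tested genes. In DN+NaB against NC, 5 of the 7 were lower and 1 higher, beside 8.94% and 6.62% of all tested genes. Their part was not tested.

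Set against NC, Casr (-0.74 ± 0.13 log2, edgeR adjusted p = 0.00144) and Pde4a (-1.03 ± 0.19, 0.00221) were lower and Plcb3 (0.34 ± 0.09, 0.0258) higher in DN+NaB. Of all tested genes, 8.94% were lower and 6.62% higher there. From DN to DN+NaB, edgeR and voom called 0 of the 21, and DESeq2 called 1, Arrb1, among 257 genes in all. In edgeR, 3 of the 21 had an unadjusted p under 0.05, as had at least 1719 of all 17530 genes. Arrb1 differed there by 0.41 ± 0.10 (edgeR adjusted p = 0.167) and Pde4d by -0.39 ± 0.14 (0.367). For both, again picked by their small p, the groups did not overlap, as for 4.56% of all tested genes. Median log2 fold changes of the 4 lists lay between -0.07 and 0.17 over the 3 comparisons.

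**Figure D4:**
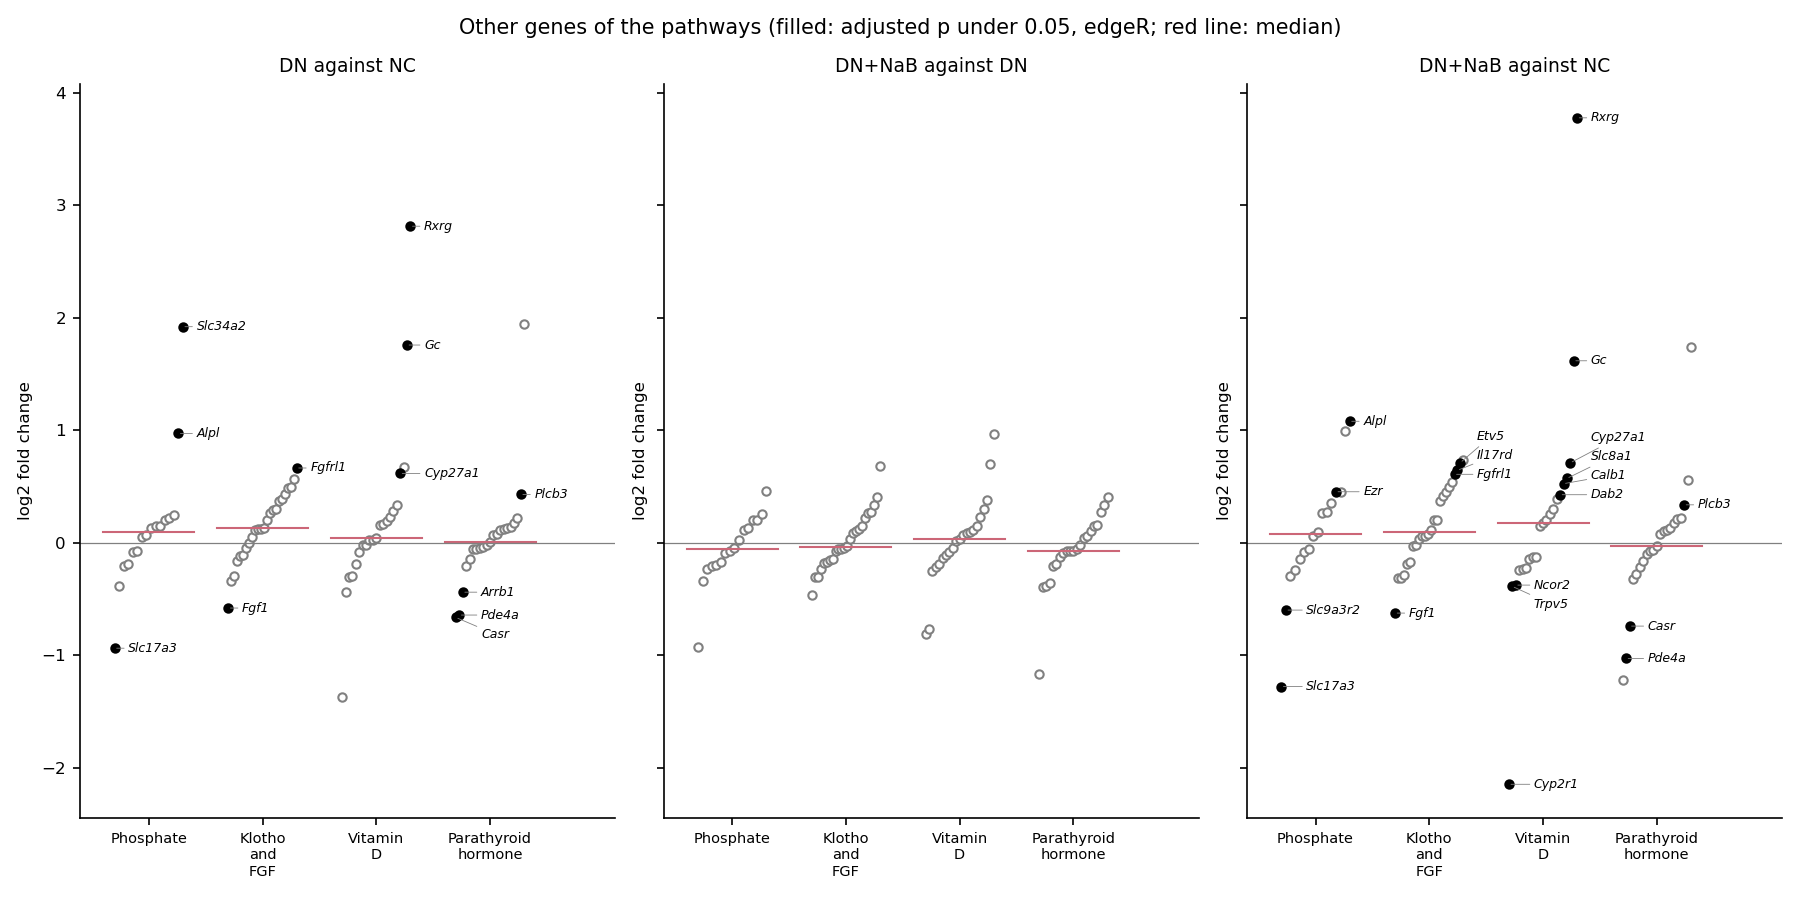
Log2 fold change of the tested genes on the 4 pathway lists in the 3 comparisons, in order of size within a list; filled and named points have an edgeR adjusted p under 0.05, and red lines are list medians. Rxrg and Gc lead the vitamin D list in both comparisons with NC, and no point is filled in DN+NaB against DN.

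The genes most like the called members over the 12 libraries were found by the root mean square (RMS) difference between log2 CPM profiles, each centred on its own mean, among 12563 genes with a mean above 1 CPM and a named symbol. For Cyp24a1, whose own profile had an RMS of 1.23, the nearest were Mab21l3 (0.605), Tmem178b (0.648) and Rnf186 (0.702). Rnf186, a ubiquitin ligase gene, stood at 19.3 ± 3.72 CPM in NC, at 37.1 ± 2.91 in DN and at 78.0 ± 12.3 in DN+NaB (mean ± SD, n = 4), and it was called higher by edgeR in all 3 comparisons, DN+NaB against DN included (1.07 ± 0.15 log2, adjusted p = 0.0299).

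For Kl, with an own RMS of 1.16, near genes were Nudt3 (0.713) and Foxs1 (0.767). Nudt3, a phosphohydrolase gene, stood at 1.82 ± 0.381 CPM in NC, at 2.37 ± 0.229 in DN and at 5.25 ± 1.76 in DN+NaB. Its 4 DN+NaB libraries ran from 185 to 513 counts and those of Foxs1 from 109 to 191, a narrower spread than the 461 to 3351 of Kl.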

How the data were processed

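The authors deposited raw read counts for each gene symbol as whole numbers in 1 table, whose 12 sample columns each matched 1 sample title. Per the submitters' processing notes, HISAT2 2.0.4 was among the tools. How reads were counted, with which annotation, build and strand setting, is not given in the sources used here. Reads of overlapping genes on opposite strands may therefore have gone to either: Cyp24a1 (4289 to 51155 counts) shares 718 bases with Pfdn4 (50 to 134 counts), Slc20a2 shares 95 with Smim19 (605 to 1565 counts) and Pth1r overlaps Myl3 (0 to 21 counts), in GENCODE vM21.

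Counts were filtered with filterByExpr by group, scaled with TMM factors and fitted in edgeR 4.0.16 (robust quasi-likelihood, group as the only term; R 4.3.3); tests are two-sided with Benjamini-Hochberg adjustment over 17530 genes. The filter kept at least 99.95% of each library's counts. The median standard error was 0.17 log2 over 13540 genes above 1 CPM. CPM use the TMM factors; profiles for likeness used log2 CPM with a prior count of 2. Alternatives were DESeq2 1.42.0, limma 3.58.1 (voom), other scalings and filters, 2-group fits, a replicate block and leaving out libraries. No pair of the 12 libraries agreed within sampling noise (chi-square per degree of freedom at least 25.4). The code was tested on simulated counts.

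The 10 members and the gene lists were chosen with earlier results of these data known. Named from each list and comparison are up to 5 called genes, smallest p first, or, where fewer than 2 were called, the 2 with the smallest p; genes named beside marker sums were chosen after their values were seen. Some genes that these rules and lists hold are not reported here.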

Additional observations from a re-analysis of the deposited data

Results flagged for a closer look

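In 2 of the 30 sets of 4 values (10 genes in 3 groups), 1 library stood apart from its group by Dixon's test, which chance gives in about 1 of 20 sets; both concern Pth1r, the parathyroid hormone receptor. NC replicate 4, at 523.2 CPM, was separated from the next NC library by 0.832 of the group's range. DN+NaB replicate 2, at 715.0 CPM, was separated by 0.896 of the range, in a group whose other libraries lay between 601.8 and 612.6. Neither library changed the outcome for Pth1r, which passed the threshold in none of the alternatives.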

How the results depend on the processing

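Of 560 recomputed fold changes of the 10 genes, 510 kept their direction and their side of the threshold, 11 lost and 13 gained a call, and 26 changed sign. In DN+NaB against DN, edgeR called 4 genes in all. This became 22 with RLE size factors, 26 with library size only, 17 with a filter at 1 CPM, 27 with no filter, 257 in DESeq2, 2 in voom, 0 when only the 2 groups were fitted, 0 without both DN+NaB replicates 2 and 4, and 0 to 67 when 1 library was left out (67 without DN replicate 3). Of the 10 members, DESeq2 called 1 there and edgeR 0. In DN against NC the count of all genes was 1443 (942 to 1976 with 1 library left out, the lowest without NC replicate 1), and that of members 0, with 2 in DESeq2 and 0 to 1 with 1 library left out (1 without DN replicate 1, 3 or 4). In DN+NaB against NC it was 2729 genes, and 961 without both DN+NaB replicates 2 and 4. The count of members was 2 there, 1 with no filter, in voom and without both replicates, 6 when only the 2 groups were fitted (Slc34a1, Slc34a3, Slc20a2, Cyp27b1, Cyp24a1 and Vdr; that fit also called 1783 genes higher in all, against 1161), and 1 to 2 with 1 library left out. Scaling by library size only moved the median of all genes in that comparison to -0.12. Kl against NC passed in 8 of 19 alternatives.

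Signs turned for 7 of the genes. For Slc34a1 in DN against NC the log2 values were -0.0197 with upper quartile factors, -0.0919 with library size only, -0.0154 with the 1 CPM filter, -2.051e-05 with no filter and -0.0372 in voom, and -0.17 to 0.14 with 1 library left out. Fgfr1 in DN+NaB against NC was -0.0841 with library size only, -0.00777 with the 1 CPM filter and -0.00616 to 0.0538 with 1 library left out. Leaving out 1 library gave -0.25 to 0.0372 for Pth1r, -0.0446 to 0.29 for Slc34a3 and -0.0295 to 0.26 for Vdr in DN against NC, -0.95 to 0.0446 for Cyp27b1, -0.0574 to 0.26 for Slc20a2 and -0.0783 to 0.22 for Pth1r in DN+NaB against DN, and -0.13 to 0.00984 for Pth1r in DN+NaB against NC. Pth1r in DN+NaB against DN was -0.0151 without both replicates.

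No label ties the replicate numbers to a shared animal or batch, and in no comparison was every same-number correlation above 0.1 (ranges -0.09 to 0.20, -0.25 to 0.27 and -0.07 to 0.22 in DN against NC, DN+NaB against DN and DN+NaB against NC; 1, 1 and 3 of 4 libraries correlated best with their own number), so the samples were taken to share only a number; the 3 of 4 in DN+NaB against NC are a hint from the data and not from the design. With a replicate block, 7 genes were called in DN+NaB against DN, Slc34a1 in DN against NC was -0.0253, Slc34a3 in DN+NaB against NC passed (0.74, edgeR adjusted p = 0.0228) and Kl did not (1.90, 0.0755). The causes of these changes were not tested. Among the 10 genes Kl had the fewest counts, 199 in its lowest library.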
